A study of Mus musculus with 6 samples.

Results

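The genes described here are 8 regulators of lipid synthesis transcription: Srebf1, Srebf2, Scap, Insig1 and Insig2 of the sterol regulatory element-binding protein (SREBP) pathway, Mlxipl (ChREBP, the carbohydrate response element-binding protein) with its partner Mlx, and Thrsp (Spot 14). A probe set, the group of array probes summarised to 1 value, stood for a gene where the platform annotation gave a single symbol equal to its name. All 8 genes were found, with 9 probe sets among 33079, and Scap alone had more than 1, of which the brighter stood for it. They are 8 of 21996 genes measured in this way. Total RNA came from adipocytes made in culture from C3H10T1/2 cells, a mouse mesenchymal line, given as 9 days of differentiation. Every culture was exposed for 72 h to an adenovirus at a multiplicity of infection of 50, and the hairpin RNA was driven by a U6 promoter. The control virus carried a scrambled hairpin (scramble, 3 biological replicates), and the other carried a hairpin against Zc3h10, a CCCH zinc finger RNA-binding protein gene (Zc3h10 shRNA, 3 biological replicates). No untransduced culture and no other hairpin was analysed here.

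SREBPs are made as precursors in the membrane of the endoplasmic reticulum, where they are bound to the escort protein SCAP. INSIG proteins hold SCAP in that membrane when sterols are plentiful. When sterols fall, SCAP carries the precursor in COPII vesicles to the Golgi, where the site-1 and site-2 proteases (genes Mbtps1 and Mbtps2) release the part that enters the nucleus. SREBP-2, from Srebf2, mainly drives cholesterol synthesis and uptake, and SREBP-1, from Srebf1, mainly drives fatty acid and triglyceride synthesis. ChREBP responds to glucose metabolites and binds DNA as a dimer with MLX. The arrays measured transcripts, so precursor cleavage and nuclear protein were not measured. A probe set also does not separate the isoforms of Srebf1 (SREBP-1a and SREBP-1c) or of Mlxipl.

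In adipocytes given the Zc3h10 hairpin, 4 of the 8 regulators fell: Mlxipl to 37.6% of the scramble level, Insig1 to 51.5%, Srebf1 to 53.6% and Thrsp to 58.2%. The remaining 4, Srebf2, Scap, Mlx and Insig2, did not pass the threshold, an adjusted p under 0.05 in limma's moderated test over all probe sets. Across all named genes 12.1% passed, 6.6% as lower and 5.51% as higher. Above the range of silent genes set out below, where all 8 regulators lay, 21.7% of named genes passed, 12% as lower. Of measured genes that the SREBPs and ChREBP are known to drive, 16 of 18 in sterol synthesis fell (median log2 change −0.80). In fatty acid and triglyceride synthesis 17 of 21 fell (median −0.76), while of 17 carbohydrate response genes 6 fell and 1 rose. Falls were not particular to these targets, as 17 of 18 measured adipocyte markers fell too (median −1.17). The Srebf2 transcript was at 96.1% of the scramble level. For 7 of the 8 regulators the scramble and shRNA ranges were apart, 5 of them lower, against 31.9% of named genes in either direction and 15.2% lower. The median log2 change of the 8 regulators was −0.54, beside 0.01 over all named genes.

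**Figure D1:**
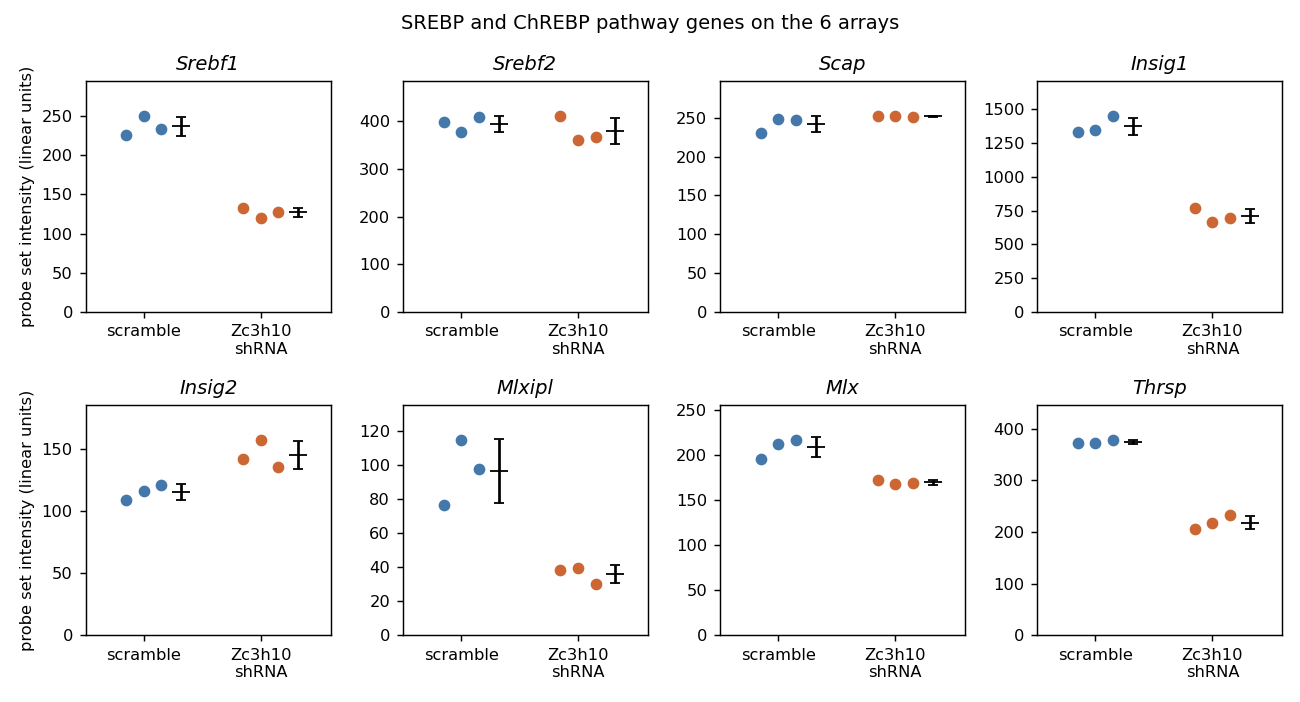
Probe set intensity (linear units, axes from 0) of the 8 regulators on each of 3 scramble and 3 Zc3h10 shRNA arrays; points are arrays, and the bar beside them is the mean with the SD. Srebf1, Insig1, Mlxipl and Thrsp lay lower on all shRNA arrays than on any scramble array, Srebf2 overlapped, and Insig2 lay higher on the shRNA arrays.

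Zc3h10, the gene the hairpin targets, was measured first as a check of the labels. Its intensities were 25.9, 39.0 and 35.3 in the scramble group and 25.2, 30.2 and 22.9 in the shRNA group. The groups overlapped through scramble replicate 1, and the log2 change of −0.34 ± 0.17 (standard error, SE, of the limma fit, as for every change below) did not pass (limma, adjusted p = 0.301). Leaving out scramble replicate 1 moved it to −0.52, and leaving out replicate 2 to −0.22. The knockdown is thus not resolved by this probe set, and the groups are those of the labels. The same 4 regulators passed without scramble replicate 1, as they did without each other array in turn.

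Deposited intensities were distributed alike in both groups. Their normalization is not given and can itself make medians alike, so these values do not measure array or RNA quality. Median intensities were 15.6 to 16.1, and Pearson's r across all log2 values was 0.992 to 0.994 for arrays of one group and 0.985 to 0.988 for arrays of different groups. As a gauge of silent genes, 1379 olfactory and vomeronasal receptor genes had a central 95% of mean log2 values from 1.90 to 4.37, and all 8 regulators had group means above 4.37. Of the 11512 named genes whose mean lay above it, 21.7% passed and 12% passed as lower. Of 18 measured adipocyte markers, 17 lay above 4.37 and Lep (3.48 on scramble arrays) did not. The 3 brightest over all 6 arrays, Fabp4, Cd36 and Cidec, had mean log2 values of 12.78, 11.73 and 11.60 on scramble arrays. Adig (5.64) and Pck1 (5.92) were dimmer there. Nothing beyond the label "biological replicate" says how the cultures were kept apart, so p-values measure the spread between these arrays. With 3 arrays a group, precision is limited throughout.

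Of the SREBP genes themselves, Srebf1 fell and Srebf2 was not detectably different. Srebf1 (chromosome 11, 60199084 to 60224186 on GRCm38.p6, as for all positions here) gave intensities of 226, 250 and 234 on scramble arrays and 132, 120 and 127 on shRNA arrays. The highest shRNA array thus lay well below the lowest scramble array. Its log2 change was −0.90 ± 0.09, 1.87-fold lower (limma, adjusted p = 0.00108), with a 95% confidence interval of 46.4 to 61.8% of the scramble level. Among 21996 named genes, 352 (1.6%) had a more negative change. Srebf2 (chromosome 15, 82147269 to 82205379) gave 398, 377 and 410 on scramble arrays and 411, 362 and 367 on shRNA arrays. Here the groups overlapped, with the highest and the lowest of the 6 values both on shRNA arrays. The log2 change was −0.06 ± 0.09 (limma, adjusted p = 0.798), and its 95% confidence interval, 82.8 to 111% of the scramble level, does not reach the size of the Srebf1 change.

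The unequal change of the pair was also tested within arrays, as the log2 intensity of Srebf1 minus that of Srebf2. The level of this difference depends on the probes, so only its shift between groups is read. It was −0.81, −0.60 and −0.81 on scramble arrays and −1.63, −1.59 and −1.53 on shRNA arrays, without overlap. The shift was −0.84 (two-sided exact permutation test, p = 0.1, the smallest that 3 against 3 arrays allow; adjusted p = 0.125 over 5 pairs). An intron of Srebf2 holds the microRNA gene Mir33, known as a repressor of cholesterol efflux genes, which was looked up after its value was seen. Its probe set was within the range of silent genes, at a mean log2 of 2.10 on scramble and 2.18 on shRNA arrays, so these arrays give no usable level for it.

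**Figure D2:**
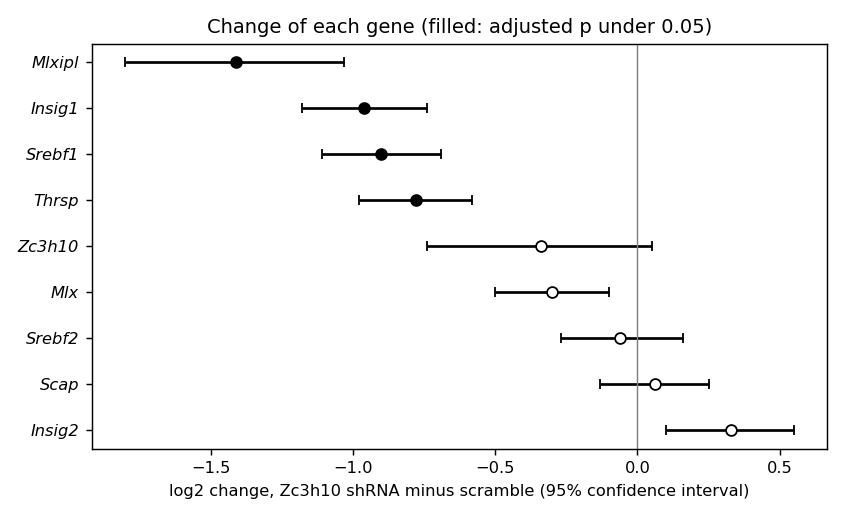
Log2 change (Zc3h10 shRNA minus scramble, limma) of the 8 regulators and Zc3h10 with 95% confidence intervals; filled points have an adjusted p under 0.05. Mlxipl at −1.41 lies lowest here, Insig1, Srebf1 and Thrsp lie between −0.96 and −0.78 with overlapping intervals, and Insig2 at 0.33 is highest.

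Transcripts for the proteins that hold and carry the SREBP precursor did not move together. Insig1 fell, Insig2 was at a positive value short of the threshold, and Scap was close to its scramble level. Insig1 (chromosome 5, 28071412 to 28078662), a retention protein that is itself a textbook SREBP target, gave 1336, 1346 and 1450 on scramble arrays. On shRNA arrays it gave 770, 665 and 694, all far under the scramble range. The log2 change was −0.96 ± 0.09, 1.94-fold lower (limma, adjusted p = 0.00108). Insig2 (chromosome 1, 121304353 to 121332662), the paralog that serves the same retention step, gave 109, 116 and 121 on scramble arrays and 142, 157 and 135 on shRNA arrays. Every shRNA value was higher than every scramble value, but the log2 change of 0.33 ± 0.10 did not pass (limma, adjusted p = 0.0793, unadjusted p = 0.00971). It passed with an offset of 32 before log2 (adjusted p = 0.0272), without probe sets under the median (0.0277) and with an intensity trend in the prior (0.0297). Within arrays, Insig1 minus Insig2 shifted by −1.28, from 3.62, 3.53 and 3.58 on scramble arrays to 2.44, 2.08 and 2.36 on shRNA arrays (two-sided exact permutation test, p = 0.1; adjusted p = 0.125).

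Scap (chromosome 9, 110333288 to 110384949), the escort and sterol sensor of the precursor, gave 230, 249 and 247 on scramble arrays and 252, 252 and 251 on shRNA arrays. The groups did not overlap, yet the gap was small, at a log2 change of 0.06 ± 0.08 (limma, adjusted p = 0.768) with an interval of 91.1 to 119% of the scramble level. Its second, dimmer probe set gave −0.23 ± 0.14 with overlapping groups (limma, adjusted p = 0.423). The mean of both probe sets was at −0.09 (adjusted p = 0.639), so the sign of the Scap change depends on the probe set.

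The promoters of the INSIG pair are shown because these paralogs had values of opposite sign. Sequence was taken from RefSeq on GRCm38.p6 as the 250 bases before a transcript start, and all 8 regulators matched, with 14 windows. Both strands were searched for TCACNCCAC (a short form of the sterol regulatory element), for its long form with AT in place of the leading T, for CACGTG (E-box), for paired CACGTG with 5 bases between them (carbohydrate response element) and for CCAAT (NF-Y box). The long sterol form contains the short one, and the paired form contains the E-box. Of 32851 windows of this length, 0.192% held the long sterol form, 1.05% the short form, 6.02% the E-box and 33.8% the NF-Y box. The exact paired form was in 0 of them, so its absence from a regulator carries no information. The Insig1 window (chr5:28071162-28071411, plus strand) held an E-box 101 bases and an NF-Y box 216 bases before the start, in capitals. Of the 3 Insig2 windows, that at chr1:121332590-121332839 (minus strand) is shown, as it alone held a match. It held 3 NF-Y boxes, also in capitals, and no E-box. The remaining Insig2 windows held no searched motif. Among the 8 regulators, E-boxes were in windows of Insig1, Mlx, Mlxipl and Scap. A link between E-boxes and the changes was not tested. A match is a string of letters, not a bound site. Only exact matches within 250 bases were counted, so a window without one is not shown to lack an element.
Insig1: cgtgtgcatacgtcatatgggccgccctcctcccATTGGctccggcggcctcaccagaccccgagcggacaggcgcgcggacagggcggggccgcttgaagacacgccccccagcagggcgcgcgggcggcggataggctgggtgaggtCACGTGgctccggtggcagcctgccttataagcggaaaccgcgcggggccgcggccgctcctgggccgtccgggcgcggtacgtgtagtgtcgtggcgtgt
Insig2: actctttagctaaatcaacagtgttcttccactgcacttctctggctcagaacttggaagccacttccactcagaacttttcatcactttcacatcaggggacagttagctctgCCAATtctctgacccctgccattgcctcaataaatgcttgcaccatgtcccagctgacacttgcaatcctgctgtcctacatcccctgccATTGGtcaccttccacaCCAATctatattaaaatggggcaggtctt

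ChREBP's gene had the most negative change of the 8, except with an offset of 32 before log2, where Mlxipl was at −0.91 and Insig1 at −0.93. Mlxipl (chromosome 5, 135089890 to 135139768) gave 77.0, 115 and 97.7 on scramble arrays and 38.5, 39.5 and 30.1 on shRNA arrays. The scramble arrays spread more for Mlxipl than for any other of the 8 regulators (SD 0.29 on the log2 scale), but none came near the shRNA range. The log2 change was −1.41 ± 0.17, 2.66-fold lower (limma, adjusted p = 0.00203), with an interval of 28.7 to 49.1% of the scramble level. Only 78 of 21996 named genes (0.355%) had a more negative change. Mlx (chromosome 11, 101086707 to 101092207), the obligate dimer partner, gave 196, 213 and 217 on scramble arrays and 173, 168 and 169 on shRNA arrays. These groups did not overlap, and the log2 change of −0.30 ± 0.09 lay just outside the threshold (limma, adjusted p = 0.0737). It passed in 7 of 19 alternative settings, among them adjustment over named genes alone (adjusted p = 0.0458), with values of 0.00791 to 0.202 over all 19.

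Mlxip (MondoA), the paralog of ChREBP that also pairs with MLX, gave 180, 195 and 190 on scramble arrays and 146, 139 and 163 on shRNA arrays. Its groups did not overlap either, at a log2 change of −0.34 ± 0.10 (limma, adjusted p = 0.0718). Within arrays, Mlxipl shifted by −1.12 against Mlx and by −1.08 against Mlxip, each without overlap (two-sided exact permutation tests, p = 0.1; adjusted p = 0.125). With an offset of 32 before log2, which shrinks changes of dimmer genes such as Mlxipl, these shifts were −0.66 and −0.63.

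Both Mlxipl windows are shown because this gene has separate transcript starts. The first (chr5:135089640-135089889, plus strand) held an E-box 98 bases and an NF-Y box 173 bases before the start. The second (chr5:135106641-135106890, plus strand) held the only exact match to the short sterol form among the 14 windows, 136 bases before the start. The other windows are not thereby shown to lack a sterol element. Capitals mark these matches.
Mlxipl, first start: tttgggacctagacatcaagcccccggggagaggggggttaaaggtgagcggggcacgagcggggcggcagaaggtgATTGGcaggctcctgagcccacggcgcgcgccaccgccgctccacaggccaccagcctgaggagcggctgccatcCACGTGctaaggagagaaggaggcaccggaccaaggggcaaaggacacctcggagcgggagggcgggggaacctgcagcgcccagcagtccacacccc
Mlxipl, second start: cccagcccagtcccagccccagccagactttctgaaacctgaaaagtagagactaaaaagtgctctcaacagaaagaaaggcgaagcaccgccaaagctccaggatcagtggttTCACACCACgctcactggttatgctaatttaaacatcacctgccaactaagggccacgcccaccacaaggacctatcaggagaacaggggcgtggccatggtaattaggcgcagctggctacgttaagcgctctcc

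Thrsp, a small nuclear and cytosolic protein that promotes fatty acid synthesis and responds to thyroid hormone and carbohydrate, fell with the narrowest scramble spread of the 8 in log2 terms (SD 0.01). The gene (chromosome 7, 97412933 to 97417550) gave 373, 372 and 378 on scramble arrays and 206, 217 and 232 on shRNA arrays. The scramble arrays were nearly equal, and the shRNA arrays lay far under them. The log2 change was −0.78 ± 0.09, 1.72-fold lower (limma, adjusted p = 0.00160). Its paralog Mid1ip1, which promotes polymerisation of acetyl-CoA carboxylase, fell by a similar amount, from 192, 217 and 208 to 132, 129 and 123, at −0.68 ± 0.09 (limma, adjusted p = 0.00307). The within-array difference of this pair overlapped between groups, with a shift of −0.10 (two-sided exact permutation test, p = 0.4; adjusted p = 0.4). Mid1ip1 has 3 probe sets, and with their mean in place of the brightest the shift was −0.27 and the groups were apart (exact permutation p = 0.1). The Thrsp window (chr7:97417551-97417800, minus strand) is shown as that of the member with the most even control values. It held NF-Y boxes 79 and 52 bases before the start, in capitals, and no other searched motif. The exact paired form was in 0 windows of any gene, so this does not speak to a carbohydrate response element.
Thrsp: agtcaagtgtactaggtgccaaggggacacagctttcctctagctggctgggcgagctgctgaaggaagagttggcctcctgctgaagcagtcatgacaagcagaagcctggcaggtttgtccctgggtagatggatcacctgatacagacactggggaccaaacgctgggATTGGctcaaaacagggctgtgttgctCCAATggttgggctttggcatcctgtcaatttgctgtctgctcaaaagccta

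**Figure D3:**
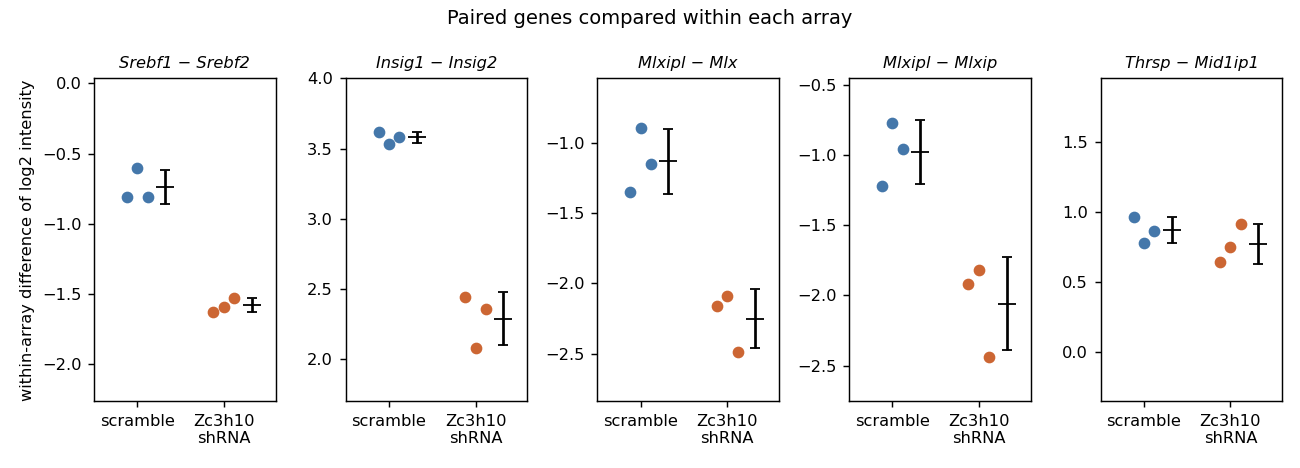
Within-array difference of log2 intensity for 5 pairs of genes on 3 scramble and 3 Zc3h10 shRNA arrays (points), with mean and SD; every axis spans the same range of log2 units. The groups separate for Srebf1 minus Srebf2, Insig1 minus Insig2 and both Mlxipl pairs, and overlap for Thrsp minus Mid1ip1.

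For SREBP transport, cleavage and turnover, 27 of 30 listed genes were measured, of which 5 fell and 1 rose (22.2%), with a median log2 change of −0.04. All 27 lay above the range of silent genes, where 21.7% of named genes passed, so the share is near the background. Falls were largest for Erlin2, part of a protein degradation complex of the endoplasmic reticulum, at −0.68 ± 0.10 (limma, adjusted p = 0.00531). Rnf139, a ubiquitin ligase (TRC8) of the endoplasmic reticulum that binds INSIG, was at −0.57 ± 0.09, and the COPII coat gene Sec23a at −0.56 ± 0.11. Another coat gene, Sec24d, rose by 0.37 ± 0.08 (limma, adjusted p = 0.0297). The remaining falls were Ufd1 (−0.44) and Sec24a (−0.37), named after their values were seen. The protease genes were not detectably different: Mbtps1 gave 317, 318 and 361 against 322, 305 and 287, and Mbtps2 gave 84.6, 78.9 and 82.1 against 95.5, 82.2 and 91.0. Spring1, which aids site-1 protease, was at 0.16 ± 0.12 (limma, adjusted p = 0.512).

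The 6 calls of this list became 3 when scramble replicate 1 or 2 was left out, and 2 when scramble replicate 3 or either of shRNA replicates 2 and 3 was. Erlin2 and Rnf139 were among the calls each time. The count was 10 without probe sets under the median and 13 with an intensity trend or with an offset of 32.

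Of 28 listed nuclear receptors, cofactors and kinases that act on these regulators, 27 were measured, and 3 fell and 3 rose (22.2%), with a median of −0.02. With 25 of the 27 above the range of silent genes, this share too is near the background of 21.7%. Nr1h3, which encodes the oxysterol receptor LXRα, an inducer of Srebf1 transcription, gave 126, 98.7 and 129 on scramble arrays and 84.6, 87.1 and 70.6 on shRNA arrays. Its log2 change was −0.54 ± 0.14 (limma, adjusted p = 0.0438), and its partner Rxra was at −0.36 ± 0.09 (adjusted p = 0.0333). Bhlhe40, a transcriptional repressor, was at −0.74 ± 0.12 (adjusted p = 0.00773). The coactivator gene Crebbp rose by 0.38 ± 0.08 and the kinase gene Gsk3b, whose product marks nuclear SREBP for breakdown, by 0.40 ± 0.09. Akt1, a kinase of insulin signalling, rose by 0.45 ± 0.12 (limma, adjusted p = 0.049), a call lost with median centring, cyclic loess and the robust prior among other settings. Its paralog Akt2 was at −0.35 ± 0.09 and did not pass (limma, adjusted p = 0.0511). The thyroid hormone receptor genes Thra (−0.24 ± 0.09) and Thrb (−0.38 ± 0.12, from a level under 4.37) did not pass (limma, adjusted p = 0.178 and 0.0971). Nr1h2 was not analysed here. The 6 calls became 1 without scramble replicate 1 or 3 or shRNA replicate 2 or 3, 2 without scramble replicate 2 and 3 without shRNA replicate 1, and Bhlhe40 was among them each time. They were 10 with an offset of 32, and 2 (Rxra and Crebbp) with the ordinary t statistic.

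Of the other 11 genes listed for the network of MAX and MLX dimers, Mlxip among them but not Mlxipl or Mlx, 0 passed (limma) and 2 had an unadjusted p under 0.05. The ordinary t statistic also called 0. Of the 11 genes, 9 lay above the range of silent genes, where 21.7% of named genes passed. With so few genes, 0 calls is not read as a difference from that background. Myc, the growth regulator of this family, was at −0.30 ± 0.11 (limma, adjusted p = 0.156), Max, the shared partner of MYC, at 0.09 ± 0.08, Mxd1 at 0.18 ± 0.10 and Mxd3 at 0.21 ± 0.12. Mlxip passed in 6 of the 19 alternative settings.

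**Figure D4:**
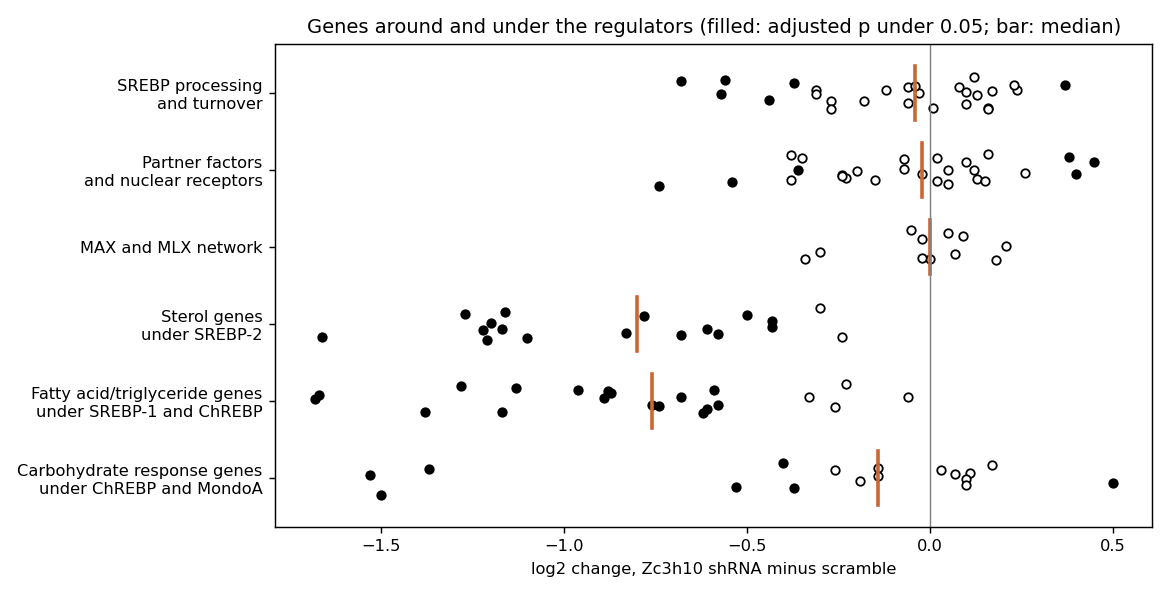
Log2 change (Zc3h10 shRNA minus scramble) of every measured gene in 6 lists; filled points have an adjusted p under 0.05 and the bar marks the list median; height within a list has no meaning. The sterol list (median −0.80) and the fatty acid and triglyceride list (median −0.76) lie to the left of 0, while the processing, partner and MAX lists centre near 0.

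Among 24 listed sterol genes that SREBP-2 is known to drive, 18 were measured and 16 fell (88.9%). All 18 were at negative values, with a median of −0.80. They all lay above the range of silent genes, where 12% of named genes passed as lower. Dhcr7, of the last step of cholesterol synthesis, gave 332, 355 and 369 on scramble arrays and 165, 134 and 140 on shRNA arrays, 2.41-fold lower (limma, adjusted p = 0.000727). Hsd17b7, a sterol ketone reductase, gave 87.1, 89.7 and 93.6 against 40.8, 36.8 and 40.3, 2.30-fold lower. Nsdhl, of sterol demethylation, and Fdps, which makes farnesyl diphosphate, were both 2.32-fold lower. Mvk, mevalonate kinase (−0.30), and Sqle, squalene epoxidase (−0.24), did not pass (limma, adjusted p = 0.116 and 0.190), so the fall was not of equal size along the pathway. The count was 11 to 14 without any 1 array.

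Of 24 genes of fatty acid and triglyceride synthesis under SREBP-1 and ChREBP, 21 were measured and 17 fell (81%), with a median of −0.76. All 21 lay above the range of silent genes, where 12% of named genes passed as lower. Pnpla3, a lipid droplet hydrolase gene and target of both regulators, gave 278, 281 and 319 against 97.4, 87.5 and 88.7, 3.21-fold lower (limma, adjusted p = 0.000587). Dgat2, which completes triglyceride, was 3.19-fold lower. Acacb, the mitochondrial acetyl-CoA carboxylase, and Acly, which supplies acetyl-CoA from citrate, were 2.61-fold and 2.42-fold lower. Fasn, fatty acid synthase, gave 3603, 3749 and 3997 against 2119, 2102 and 1999, 1.82-fold lower. The desaturase genes Fads1 (−0.06) and Fads2 (−0.23), the elongase gene Elovl5 (−0.26) and Dgat1 (−0.33) did not pass. The first 3 of these act on polyunsaturated fatty acids and are also classed as SREBP-1 targets.

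The carbohydrate response genes, classed under ChREBP and MondoA, did not all fall. Of 18 listed, 17 were measured, 6 fell and 1 rose (41.2%), with a median of −0.14. That share and median include 6 genes in the range of silent genes in both groups (Pklr, Fgf21, Rgs16, Slc2a2, G6pc and Gckr). The other 11 lay above it, where 21.7% of named genes passed, and all 7 calls were among them. The falls were led by the insulin-responsive glucose transporter gene Slc2a4 (2.89-fold), the glycerol 3-phosphate dehydrogenase gene Gpd1 (2.82-fold) and hexokinase Hk2 (2.58-fold). Pfkfb3 (−0.53), Klf10 (−0.40) and Arrdc4 (−0.37) fell by less. Txnip, a glucose-induced arrestin gene, gave 2355, 2469 and 2379 against 2079, 2046 and 2186 and did not pass (−0.19 ± 0.08, limma, adjusted p = 0.234). Tkfc, the triose kinase of fructose use, rose by 0.50 ± 0.10 (limma, adjusted p = 0.0171). The 7 calls became 4 without scramble replicate 1 or shRNA replicate 3, and 3 without any of the other arrays (scramble replicates 2 and 3, shRNA replicates 1 and 2), with Slc2a4, Gpd1 and Hk2 among them each time.

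Markers of cell type moved in the same comparison. Of 18 measured adipocyte markers, 17 were lower, and the median log2 change of the 18 was −1.17. Their summed intensity was 28496 to 31347 on scramble arrays and 14766 to 15993 on shRNA arrays. Of 19 progenitor and fibroblast markers, 6 rose and 1 fell, with sums of 16513 to 18211 and 18900 to 19249. The brightest of these, Vim, Postn and Col1a1, did not pass, at log2 changes of 0.08, −0.10 and 0.26, and Cd34, Pi16 and Dpp4 lay in the range of silent genes. Of 10 contractile markers 5 rose and 1 fell, with sums of 2221 to 2732 and 4052 to 4392, led in level by Acta2 (0.80), Myl9 (0.98) and Smtn (0.43). Of 15 bone, cartilage and muscle markers 3 fell and 1 rose, with Sox9 (−0.05), Col2a1 (−0.11) and Alpl (−0.65) the brightest and 8 in the range of silent genes. All 5 endothelial markers and 6 of 7 macrophage and lymphoid markers, Ptprc included, lay in that range, with Cd68 the exception. The part of the marker shifts in the regulator changes was not tested. In bulk RNA, fewer adipocytes and less transcript per adipocyte cannot be told apart, and Slc2a4 stands in both the adipocyte and the carbohydrate list.

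The genes whose log2 values followed a regulator most closely over the 6 arrays were sought among 12825 genes no dimmer than the median probe set. For Srebf1 they were Acaa2, Bckdhb and Coq8a (Pearson r of 0.999 each), with log2 changes of −1.25, −1.10 and −1.58. For Mlxipl they were Letmd1, Pwp2 and Wipi2 (r of 0.997 to 0.999), at −0.82, −0.38 and −0.70. For Srebf2, which differed little between groups, they were Anks6, Thap1 and Alcam (r of 0.982 to 0.987), at −0.11, −0.08 and −0.16. These correlations are descriptions over 6 arrays, and for Srebf1 and Mlxipl they follow mainly the difference between groups that all these genes share.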

How the data were processed

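The authors deposited 1 linear intensity per probe set and array. Quartiles were near-equal between arrays (lower 7.05 to 7.25, upper 76.2 to 79.1), so no scaling was added. Per the submitters' processing notes, Partek 6.6 and Affymetrix Expression Console were used, while the normalization and the background method (both not given in the sources used here) matter most for dim probe sets. Log2 was taken without offset, and limma 3.58.1 (R 4.3.3; lmFit and eBayes, two-sided, with Benjamini-Hochberg adjustment; residual df 4, prior df 4.00) tested Zc3h10 shRNA minus scramble over all 33079 probe sets. Genes were named from the platform annotation: 23043 probe sets had 1 symbol, 1740 several and 8296 none, and the brightest probe set stood for a gene. RefSeq gave positions and promoters; the arrays' own build: not given in the sources used here. The regulators, gene lists and alternatives were chosen with earlier results of these data known. The naming rule took all 8 regulators, per list the 4 genes with the smallest p plus a fixed set, and per marker list the 3 brightest genes. Members of the target lists that missed the threshold, and genes said to be looked up later, were named after their values were seen. So were Akt1, Akt2, Arrdc4, Klf10, Pfkfb3, Lep, Adig and Pck1. The 19 alternatives varied scaling, offset, dim probe sets, prior, pairing, probe set choice, array weights and the arrays used. Listed genes without a probe set of 1 symbol were not analysed here. The code was tested on simulated data. No pair of arrays held identical values. Same-numbered replicates were not treated as pairs in the main fit (deviation correlations of 0.08, 0.00 and 0.04). The labels do not say whether cultures were paired.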

Additional observations from a re-analysis of the deposited data

How the results depend on the processing

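Srebf1, Mlxipl, Thrsp and Insig1 kept their direction and passed under all 19 alternatives, with largest adjusted p values of 0.0173, 0.0462, 0.0173 and 0.0202, all with the ordinary t statistic. Mlx passed without the dimmest 25%, without probe sets under the median, with an intensity trend, with the ordinary t statistic, with the mean of the probe sets of a gene and with adjustment over named genes alone (−0.30 in each), and with an offset of 32 (−0.25). Insig2 passed with the offset (0.26), without probe sets under the median and with the trend (0.33 in both). The regulators that passed were thus 5 or 6 under those settings. Scap changed sign with the mean of its probe sets (−0.09). Zc3h10 did not pass under any alternative (adjusted p of 0.0810 to 0.588). The processing list had 13 calls with the offset or the trend and 10 without probe sets under the median. The partner list had 10 with the offset and 2 with the ordinary t statistic. The MAX list had 1, Mlxip, with the offset, the trend, either filter on dim probe sets, the mean of probe sets and named genes alone. With the replicate block, the processing, partner and carbohydrate lists had 3, 1 and 4 calls, and 2455 probe sets were called over the array. Deviations of same-numbered arrays were barely correlated, which with 3 arrays per group cannot exclude paired cultures. Arrays did not all correlate best with their own number. The ordinary t statistic called 1972 probe sets against 3238. Without any 1 array the count over all probe sets was 1807 to 2578, the processing list 2 to 5, the partner list 1 to 3 and the carbohydrate list 3 to 4. The 5 within-array contrasts kept their sign under all alternatives run. Intensity near background limits dim genes, and 3 arrays per group limit small changes.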
